A study of Arabidopsis thaliana with 12 samples.

Results

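Leaves turn nitrate into glutamate in 4 enzymatic steps, and the 10 genes described here encode the enzymes of those steps in Arabidopsis thaliana. They are the nitrate reductase genes NIA1 and NIA2, the nitrite reductase gene NIR1, the cytosolic glutamine synthetase genes GLN1;1, GLN1;2, GLN1;3 and GLN1;4, the plastid glutamine synthetase gene GLN2 (GS2), and the glutamate synthase genes GLU1 (ferredoxin-dependent) and GLT1 (NADH-dependent). They were picked by locus code from a count table of 33602 loci, and all 10 were found and passed the filter on low counts that left 18967 genes for testing. Nitrate reductase works in the cytosol and makes nitrite, which nitrite reductase turns into ammonium in the plastid. Glutamine synthetase joins ammonium to glutamate, and glutamate synthase passes the amino group of glutamine on to form glutamate. In leaves, GLN2 and GLU1 also recapture the large amount of ammonium that photorespiration sets free, whereas the cytosolic glutamine synthetases are known for primary assimilation and for nitrogen transport between organs.

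The plants were Columbia-0 and of 2 lines, cat2 gox2 and cat2 gox1. Both carry the cat2-2 mutation in CAT2, the main leaf catalase, and each carries a mutation in a different gene for glycolate oxidase, the peroxisomal enzyme that makes hydrogen peroxide from photorespiratory glycolate. No group with an intact CAT2 gene was compared, so the values describe catalase-deficient leaves. The 4 groups were cat2 gox2 after high light, cat2 gox2 under high CO2, cat2 gox1 after high light and cat2 gox1 under high CO2, with 3 libraries each. High CO2 plants were 3 weeks old and grew in 3000 ppm CO2 under 120 µmol of light (photons per square metre and second), conditions that hold photorespiration back. High light plants were the same age and had been moved for 3 h to another chamber with drier air, where CO2 was at 400 ppm and light at 1200 µmol. Light, CO2, chamber and elapsed time changed together and cannot be told apart. Every library was made from the pooled middle-aged leaves of 15 plants, and the whole set-up was repeated to give the 3 biological repeats. The labels name leaf as the tissue and shoot tissue of seedlings as the source.

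Library totals ran between 19571516 and 25314811 counts. Levels are given as CPM, the counts of a gene scaled to a common library total, after TMM scaling, which corrects for differences in library composition, and 1 count was worth at most 0.0526 CPM. GOX1 lay between 943 and 2197 CPM in the cat2 gox2 libraries and between 128 and 284 CPM in the cat2 gox1 libraries. GOX2 lay between 6.98 and 16.8 CPM in 5 of the 6 cat2 gox2 libraries and between 451 and 1199 CPM in the cat2 gox1 libraries. The remaining cat2 gox2 library, replicate 2 after high light, had 122 CPM of GOX2, far from the other cat2 gox2 libraries. CAT2 lay between 44.0 and 120.0 CPM in the 12 libraries. Replicate 3 under high CO2 also stood apart, in both lines: 8.46% of the tested genes in cat2 gox2 and 13.3% in cat2 gox1 were at least 2-fold away from the mean of replicates 1 and 2, against 1.77% and 4.20% for replicate 3 after high light. Results are therefore given with and without these libraries where that changes them. The 6 leaf mesophyll markers, among them RBCS1A and RCA, summed to between 17406 and 75910 CPM, and the root markers PYK10, EXPA7, CASP1 and COBL9 to at most 0.431 CPM.

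GLN1;1 and GLN1;2 are the closest relatives among the members and moved in opposite directions. Their coding sequences were identical at 87.5% of 1071 bases in the TAIR10.1 annotation of RefSeq, while GLN1;1 and GLN1;3 shared 79.3% and GLN1;1 and GLN1;4 shared 78.4%. The first 60 coding bases of the 4 cytosolic genes are printed 5′ to 3′, with capitals at each position where the base differs from GLN1;1 when the starts are laid side by side without gaps.
GLN1;1: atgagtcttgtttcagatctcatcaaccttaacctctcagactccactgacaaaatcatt
GLN1;2: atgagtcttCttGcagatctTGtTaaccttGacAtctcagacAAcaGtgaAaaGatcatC
GLN1;3: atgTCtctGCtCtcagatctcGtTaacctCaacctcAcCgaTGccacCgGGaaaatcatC
GLN1;4: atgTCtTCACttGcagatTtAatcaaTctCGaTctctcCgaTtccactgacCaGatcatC
These stretches differ from GLN1;1 at 13 positions in GLN1;2, 16 in GLN1;3 and 18 in GLN1;4. Over the whole transcripts, 9 of the 10 members shared no run of 50 bases with the longest transcript of any other gene. GLT1 was the exception, with 78 of 7576 such runs (1.03%) in its neighbour AT5G53470, which overlaps it by 127 bases on the same strand. GLU1 overlaps AT5G04150 by 79 bases on the opposite strand. The counting strand is not given in the sources used here, so counts from those ends cannot be assigned with certainty.

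The sequence before the transcription start is shown for the same contrasting pair, GLN1;1 at chr5:14935886-14936135 and GLN1;2 at chr1:24657704-24657953, both on the minus strand of TAIR10.1 and written 5′ to 3′ on that strand with the start following the last base. Capitals mark a match to the W-box core TTGAC on either strand.
GLN1;1: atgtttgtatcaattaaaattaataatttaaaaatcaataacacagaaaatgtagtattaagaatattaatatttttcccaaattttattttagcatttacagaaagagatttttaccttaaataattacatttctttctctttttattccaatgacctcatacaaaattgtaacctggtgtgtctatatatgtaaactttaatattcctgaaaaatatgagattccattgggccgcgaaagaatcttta
GLN1;2: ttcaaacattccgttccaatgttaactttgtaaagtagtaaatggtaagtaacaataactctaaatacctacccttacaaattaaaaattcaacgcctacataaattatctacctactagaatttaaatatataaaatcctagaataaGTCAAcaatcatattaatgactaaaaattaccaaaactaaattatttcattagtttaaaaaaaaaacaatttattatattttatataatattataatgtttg
In all, 4 motifs were searched on both strands in the 250 bases before and 50 bases after the start: the W-box core TTGAC, bound by WRKY factors, the G-box CACGTG, the heat shock element core GAANNTTC, and the spaced core of the nitrate-responsive element, given here by name. GLN1;1 had no match to any of them, and GLN1;2 had 1 W-box core, whose first base lay 102 bases before the start. W-box cores were in 6 of the 10 members, including NIA1, NIA2, NIR1 and GLN2, and in 50.5% of 27443 promoters of that length. The heat shock element core was in GLU1 alone among the members and in 11.6% of all promoters. The G-box and the nitrate-responsive core were in no member, and in 7.68% and 0.164% of all promoters. These are letter matches in a short window and no more than that.

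After high light, 6 of the 10 genes passed the threshold in cat2 gox2 and 6 of the 10 in cat2 gox1, and they were the same 6. NIA1, NIR1, GLN1;2, GLN2 and GLU1 fell in both lines, and GLN1;1 rose in both. NIA2, GLN1;3, GLN1;4 and GLT1 did not pass in either line. The background was large: 56.9% of all tested genes passed in cat2 gox2 (27.7% higher and 29.2% lower) and 52.1% passed in cat2 gox1 (25.6% higher and 26.5% lower). With upper-quartile scaling the split over all genes shifted, to 4221 higher and 7527 lower in cat2 gox2, against 5260 and 5533 with TMM scaling, and to 3998 and 6500 in cat2 gox1, against 4858 and 5022. Counts of 6 in 10 are near the shares over all genes, and the counts themselves are no result about nitrogen assimilation. The median log2 fold change of the 10 genes was -0.90 in cat2 gox2 and -0.68 in cat2 gox1, against -0.09 and -0.06 over all tested genes. Upper-quartile scaling put the median of all genes at -0.305 in cat2 gox2 and -0.211 in cat2 gox1, and the 6 calls and their directions were the same under it, with NIA2 added as a lower gene in cat2 gox1. Together the 10 genes took 0.441% to 0.492% of all reads in cat2 gox2 after high light, against 0.700% to 0.722% under high CO2. In cat2 gox1 they took 0.473% to 0.477% after high light, against 0.700% to 0.821% under high CO2. Since whole leaves were measured, fewer cells of a type and less RNA of a gene per cell cannot be told apart. The 6 mesophyll markers summed to 23559 to 33008 CPM after high light and 47176 to 75910 CPM under high CO2 in cat2 gox2, and to 17406 to 30137 CPM and 42708 to 67094 CPM in cat2 gox1. All 6 of these markers passed as lower in cat2 gox2 and 5 of 6 in cat2 gox1, and their part in the results for the members was not tested. The 4 phloem markers summed to 727 to 973 CPM after high light and 877 to 1047 CPM under high CO2 in cat2 gox2, and to 660.3 to 737 CPM and 769 to 1038 CPM in cat2 gox1, with 0 of 4 called in cat2 gox2 and 3 of 4 lower in cat2 gox1. Of the 5 guard cell markers, 1 passed as higher and 2 as lower in each line.

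**Figure D1:**
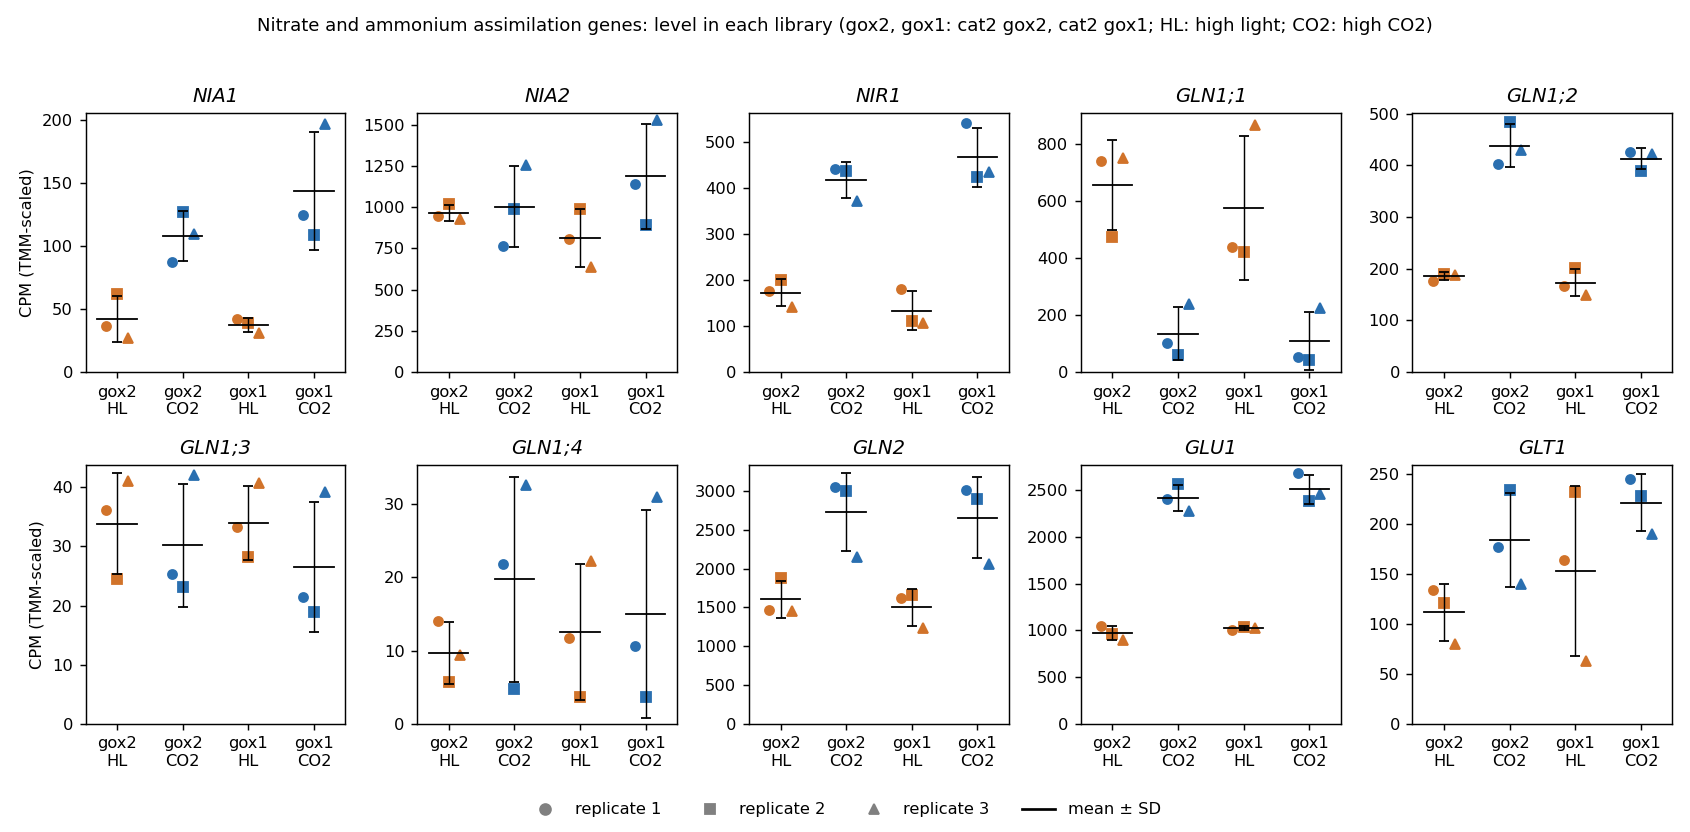
Level of each of the 10 genes in all 12 libraries, in CPM after TMM scaling, by group on the horizontal axis (gox2 and gox1 stand for the lines cat2 gox2 and cat2 gox1, HL for high light and CO2 for high CO2). Symbols are single libraries by replicate number and bars show the mean ± SD of 3; GLN1;1 is higher in every high light library than in any high CO2 library, and NIA1, NIR1, GLN1;2, GLN2 and GLU1 are lower.

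In the nitrate reduction steps, NIA1 and NIR1 fell in both lines and NIA2 did not pass. NIA1 (AT1G77760, chromosome 1, 29235721 to 29239484, minus strand, 4 exons) encodes the minor leaf nitrate reductase. It had 36.3, 62.1 and 27.2 CPM in cat2 gox2 after high light, against 87.0, 127 and 109 CPM under high CO2. Levels in cat2 gox1 were 42.3, 38.6 and 30.7 CPM after high light, against 125, 109 and 197 CPM under high CO2. All high light libraries lay below all high CO2 libraries of their line, and the highest high light value was that of the cat2 gox2 library with raised GOX2. The log2 fold change was -1.36 (SE 0.307, edgeR adjusted p = 0.00288) in cat2 gox2 and -1.95 (SE 0.312, edgeR adjusted p = 0.000392) in cat2 gox1. Non-overlap of this kind, with the high light values lower, was seen in 32.4% of tested genes in cat2 gox2 and 29.8% in cat2 gox1. Without replicate 3 under high CO2 the NIA1 fall was smaller, at -1.27 (edgeR adjusted p = 0.00395) in cat2 gox2 and -1.53 (edgeR adjusted p = 0.00141) in cat2 gox1. Without replicate 3 throughout it was -1.02 (edgeR adjusted p = 0.0129) in cat2 gox2 and -1.45 (edgeR adjusted p = 0.00272) in cat2 gox1.

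NIA2 (AT1G37130, chromosome 1, 14158452 to 14161938, plus strand, 3 exons), the gene behind most leaf nitrate reductase activity, did not pass in either line. Its levels were 946, 1022 and 932 CPM in cat2 gox2 after high light, against 767, 989 and 1256 CPM under high CO2. The corresponding cat2 gox1 levels were 809, 989 and 636 CPM after high light, against 1144, 892 and 1528 CPM under high CO2. The groups overlapped in both lines, and under high CO2 the highest value belonged to replicate 3 each time. Log2 fold changes were -0.06 (SE 0.235, 95% interval -0.57 to 0.46) in cat2 gox2 and -0.55 (SE 0.236, 95% interval -1.07 to -0.03) in cat2 gox1. The cat2 gox2 value was 0.22 and the cat2 gox1 value -0.20 without replicate 3 under high CO2, and leaving out that replicate of cat2 gox2 by itself turned the cat2 gox2 value to 0.14. The cat2 gox1 fall passed the threshold when replicate 2 under high CO2 was left out (edgeR adjusted p = 0.0329) and when replicate 2 after high light was left out (edgeR adjusted p = 0.0464). With upper-quartile scaling it also passed (-0.71, edgeR adjusted p = 0.0260).

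NIR1 (AT2G15620, chromosome 2, 6810395 to 6812941, plus strand, 4 exons) encodes the plastid nitrite reductase, which draws its electrons from ferredoxin. It had 176, 199 and 141 CPM in cat2 gox2 after high light, against 443, 438 and 372 CPM under high CO2. In cat2 gox1 the levels were 181, 112 and 106 CPM after high light, against 541, 425 and 436 CPM under high CO2. No high light library reached a high CO2 library. The log2 fold change was -1.28 (SE 0.216, edgeR adjusted p = 0.000437) in cat2 gox2 and -1.81 (SE 0.220, edgeR adjusted p = 5.62e-05) in cat2 gox1. NIA1 and NIR1 thus fell together in both lines while the level of NIA2, the far more abundant nitrate reductase mRNA, overlapped between conditions.

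The plastid glutamine synthetase gene GLN2 (AT5G35630, chromosome 5, 13830429 to 13833542, plus strand, 11 exons) had the highest level per kilobase of transcript of all members in all 12 libraries. Its enzyme takes up the ammonium from nitrite reduction and from photorespiration. GLN2 had 1468, 1882 and 1459.6 CPM in cat2 gox2 after high light, against 3048, 3000.1 and 2153 CPM under high CO2. For cat2 gox1 the values were 1627.5, 1654 and 1229.8 CPM after high light, against 3011, 2903 and 2054 CPM under high CO2. The groups were separate, and replicate 3 under high CO2 was the lowest of its group in both lines. The fall was the smallest among the 5 genes that fell, with log2 fold changes of -0.77 (SE 0.208, edgeR adjusted p = 0.00826) in cat2 gox2 and -0.82 (SE 0.208, edgeR adjusted p = 0.00665) in cat2 gox1.

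GLN1;1 (AT5G37600, chromosome 5, 14933286 to 14935885, minus strand, 9 exons), a cytosolic glutamine synthetase gene, was the single member that rose. Its levels were 741, 474 and 753 CPM in cat2 gox2 after high light, against 103, 59.7 and 239 CPM under high CO2. The cat2 gox1 libraries had 438, 422 and 866 CPM after high light, against 53.8, 42.5 and 224 CPM under high CO2. Every high light library lay above every high CO2 library, and replicate 3 was the highest of its group in all 4 groups. Such non-overlap with high light higher was seen in 30.8% of tested genes in cat2 gox2 and 28.9% in cat2 gox1. The log2 fold change was 2.29 (SE 0.666, 4.90-fold, edgeR adjusted p = 0.0121) in cat2 gox2 and 2.43 (SE 0.669, 5.38-fold, edgeR adjusted p = 0.0104) in cat2 gox1. Without replicate 3 under high CO2 it was larger, 3.1 (SE 0.386, edgeR adjusted p = 5.34e-05) in cat2 gox2 and 3.70 (SE 0.400, edgeR adjusted p = 2.40e-05) in cat2 gox1. Leaving out just the cat2 gox2 or the cat2 gox1 library of that number gave 3.01 in cat2 gox2 and 3.60 in cat2 gox1. These were the largest values with 1 library left out, and the smallest were 1.94 in cat2 gox2 and 2.01 in cat2 gox1. With the replicate number as a block, the cat2 gox2 value was 2.56 (SE 0.345, edgeR adjusted p = 0.000131). The cat2 gox1 value was then 2.71 (SE 0.348, edgeR adjusted p = 0.00012).

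GLN1;2 (AT1G66200, chromosome 1, 24655115 to 24657703, minus strand, 10 exons) moved the other way. It had 176, 190.2 and 189 CPM in cat2 gox2 after high light, against 402, 484 and 429 CPM under high CO2. The cat2 gox1 levels were 167, 201 and 149.8 CPM after high light, against 426, 389.7 and 423 CPM under high CO2. The values within each group lay close together, replicate 3 included. The log2 fold change was -1.25 (SE 0.133, edgeR adjusted p = 1.52e-05) in cat2 gox2 and -1.26 (SE 0.133, edgeR adjusted p = 2.11e-05) in cat2 gox1.

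The other cytosolic genes had low levels. GLN1;3 (AT3G17820, chromosome 3, 6097201 to 6099595, plus strand, 9 exons) had 36.1, 24.4 and 41.1 CPM in cat2 gox2 after high light, against 25.3, 23.1 and 42.0 CPM under high CO2. Levels in cat2 gox1 were 33.2, 28.2 and 40.7 CPM after high light, against 21.5, 18.9 and 39.1 CPM under high CO2. The groups overlapped, replicate 3 under high CO2 was the highest of its group in both lines, and the log2 fold changes of 0.17 (SE 0.312) in cat2 gox2 and 0.36 (SE 0.312) in cat2 gox1 did not pass. Without replicate 3 under high CO2 in either line, GLN1;3 passed as higher in both lines, with 0.57 (SE 0.207, edgeR adjusted p = 0.0330) in cat2 gox2 and 0.87 (SE 0.210, edgeR adjusted p = 0.00453) in cat2 gox1. Leaving out that replicate of cat2 gox1 by itself also brought the cat2 gox1 value past the threshold, at 0.77 (edgeR adjusted p = 0.0408).

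GLN1;4 (AT5G16570, chromosome 5, 5421589 to 5424749, minus strand, 12 exons) had the lowest mean level per kilobase in all 4 groups. Its levels were 14.0, 5.65 and 9.37 CPM in cat2 gox2 after high light, against 21.8, 4.82 and 32.6 CPM under high CO2. For cat2 gox1 the values were 11.8, 3.59 and 22.2 CPM after high light, against 10.6, 3.60 and 30.9 CPM under high CO2. Replicates of 1 group lay as far apart as 3.60 and 30.9 CPM, and no direction could be read: the log2 fold change was -1.03 with a 95% interval of -2.87 to 0.81 in cat2 gox2 and -0.27 with an interval of -2.08 to 1.55 in cat2 gox1. Without replicate 3 under high CO2 the cat2 gox2 value was -0.36 (SE 0.737), and the cat2 gox1 value turned positive, to 0.96 (SE 0.772). The cat2 gox1 value was also positive without its replicate 3 under high CO2 alone (0.85) or its replicate 2 after high light (0.17), and -0.97 without its replicate 3 after high light.

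**Figure D2:**
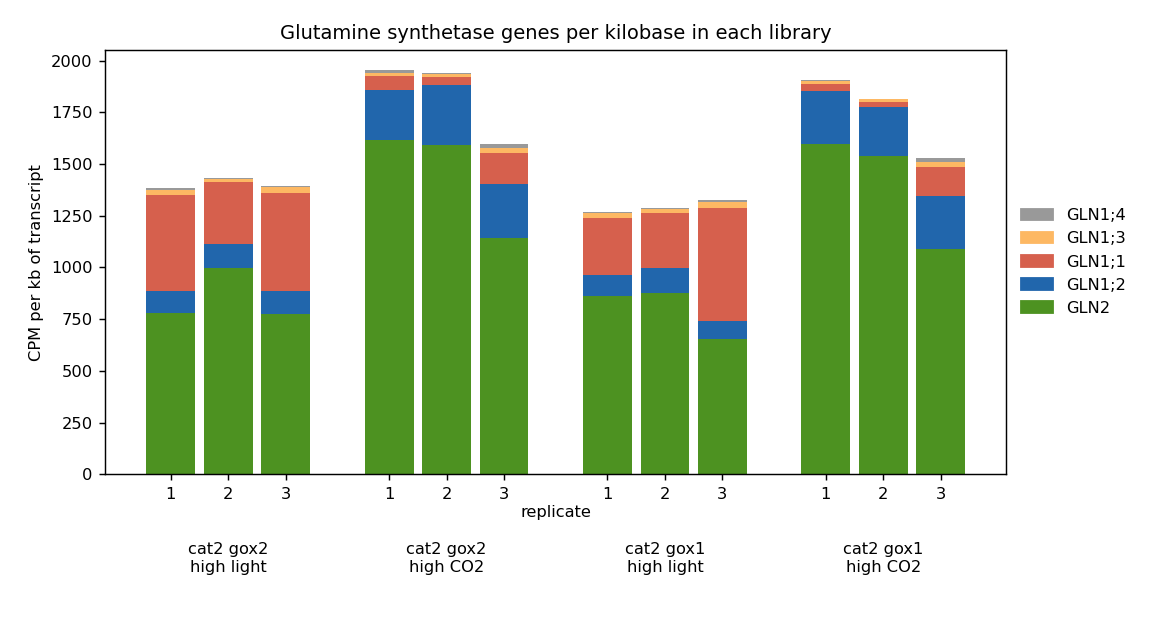
Glutamine synthetase mRNA in each library, in CPM per kilobase of the longest annotated transcript, stacked by gene (GLN2 green, GLN1;2 blue, GLN1;1 red, GLN1;3 orange, GLN1;4 grey) for replicates 1 to 3 of the 4 groups. GLN2 is the largest block in all 12 libraries, and GLN1;1 is a larger block than GLN1;2 in the 6 high light libraries and a smaller one in the 6 high CO2 libraries.

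Per kilobase of transcript, the scale on which levels of different genes can be compared, the leading cytosolic gene differed between the conditions. GLN1;1 made up 77.2%, 69.0% and 76.5% of the summed level of the 4 cytosolic genes in cat2 gox2 after high light, against 19.3%, 10.8% and 32.9% under high CO2. In cat2 gox1 its share was 68.1%, 65.2% and 80.7% after high light, against 10.9%, 9.70% and 32.1% under high CO2. GLN1;2 held 17.5%, 26.5% and 18.3% in cat2 gox2 after high light, against 71.9%, 84.0% and 56.7% under high CO2, and in cat2 gox1 24.8%, 29.8% and 13.4%, against 82.5%, 85.1% and 57.8%. GLN1;1 was therefore the larger of the pair in all 6 high light libraries and the smaller in all 6 high CO2 libraries.

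The summed level of the 4 cytosolic genes was 604, 432 and 620.03 CPM per kilobase in cat2 gox2 after high light, against 337, 348 and 456 under high CO2. In cat2 gox1 it was 405, 407 and 676 CPM per kilobase after high light, against 311, 276 and 440.4 under high CO2. The groups overlapped in both lines through replicate 3 under high CO2. Of the mRNA of all 5 glutamine synthetase genes, the cytosolic genes accounted for 43.7%, 30.2% and 44.5% in cat2 gox2 after high light, against 17.2%, 17.9% and 28.5% under high CO2. In cat2 gox1 they accounted for 31.9%, 31.7% and 50.9% after high light, against 16.3%, 15.2% and 28.8% under high CO2. The share was higher in all high light libraries than in all high CO2 libraries, and highest under high CO2 in replicate 3 of both lines. These shares are descriptions without a test.

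GLU1 (AT5G04140, chromosome 5, 1129785 to 1138488, plus strand, 33 exons) encodes the ferredoxin-dependent glutamate synthase, the main leaf form. Its levels were 1048, 965 and 901 CPM in cat2 gox2 after high light, against 2409, 2559 and 2274 CPM under high CO2. The cat2 gox1 libraries had 999, 1038 and 1028 CPM after high light, against 2679, 2385 and 2458 CPM under high CO2. Libraries within a group differed little, and the conditions were far apart. The log2 fold change was -1.31 (SE 0.120, edgeR adjusted p = 4.64e-06) in cat2 gox2 and -1.30 (SE 0.120, edgeR adjusted p = 8.22e-06) in cat2 gox1, the smallest adjusted p among the members in both lines.

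GLT1 (AT5G53460, chromosome 5, 21700187 to 21710296, plus strand, 20 exons) encodes the NADH-dependent glutamate synthase. It had 134, 121 and 79.7 CPM in cat2 gox2 after high light, against 177, 234 and 140.4 CPM under high CO2, and the groups did not overlap. The cat2 gox1 levels were 165, 232 and 62.4 CPM after high light, against 246, 229 and 189.7 CPM under high CO2, with overlap. Neither line passed, with log2 fold changes of -0.72 (SE 0.386, edgeR adjusted p = 0.130) in cat2 gox2 and -0.53 (SE 0.384, edgeR adjusted p = 0.263) in cat2 gox1. Replicate 3 after high light was the lowest library in both lines. The cat2 gox2 fall passed when replicate 3 of cat2 gox1 after high light was left out (edgeR adjusted p = 0.0275), a library that enters only through the shared estimate of spread. It also passed with only the libraries compared (edgeR adjusted p = 0.0439), without replicate 3 throughout (-0.60, edgeR adjusted p = 0.0318) and with the replicate block (edgeR adjusted p = 0.0292). The cat2 gox1 fall passed with the replicate block (-0.68, edgeR adjusted p = 0.0420).

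**Figure D3:**
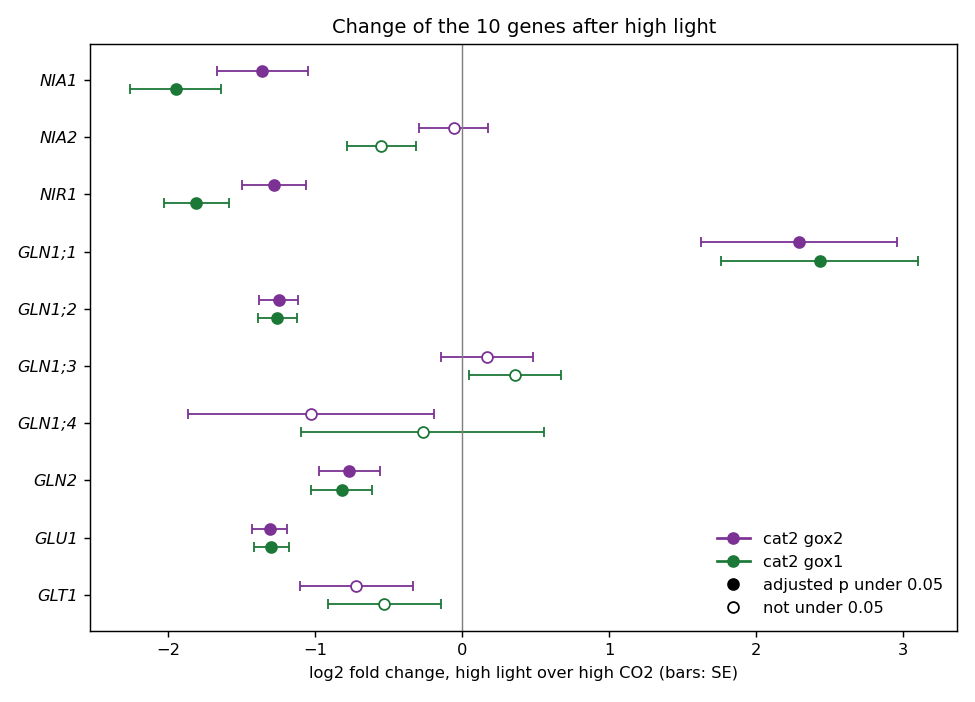
Log2 fold change of each of the 10 genes, high light over high CO2, in cat2 gox2 (purple) and cat2 gox1 (green), with bars of 1 SE; filled points passed an adjusted p of 0.05. The same 6 genes are filled in both lines, with GLN1;1 at 2.29 and 2.43 and the other 5 between -0.77 and -1.95.

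The 6 genes that passed kept their direction and their call in all 252 values from 21 other settings in the 2 lines, which included other scalings, filters, DESeq2, a replicate block and the removal of each library. The largest adjusted p among them was 0.0465, for GLN1;1 in cat2 gox2 without its replicate 1 under high CO2. The 252 values are not independent, since the fits share most libraries. A library of the other line enters a comparison only through the scaling, the filter and the shared estimate of spread. Without the cat2 gox2 library that had raised GOX2, 6 genes passed in each line, and the log2 fold change of NIA1 in cat2 gox2 was -1.76 (SE 0.286, edgeR adjusted p = 0.000568).

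Per kilobase of transcript, the mean levels followed 1 order in both lines after high light: GLN2, GLN1;1, NIA2, GLU1, GLN1;2, NIR1, GLN1;3, GLT1, NIA1 and GLN1;4. In cat2 gox2 these means were 850.4 ± 128 CPM per kilobase for GLN2, 413 ± 99.3 for GLN1;1, 302 ± 15.3 for NIA2, 179 ± 13.6 for GLU1, 111 ± 4.69 for GLN1;2 and 78.4 ± 13.4 for NIR1, with the last 4 genes between 6.04 and 21.8 (SD, n = 3). Neighbours in this order whose libraries overlapped in both lines were GLN1;1 and NIA2, GLN1;3 and GLT1, GLT1 and NIA1, and NIA1 and GLN1;4. Under high CO2 the order, again shared by both lines, was GLN2, GLU1, NIA2, GLN1;2, NIR1, GLN1;1, NIA1, GLT1, GLN1;3 and GLN1;4. The cat2 gox2 means there were 1450.2 ± 267 CPM per kilobase for GLN2, 446 ± 26.3 for GLU1, 313 ± 76.4 for NIA2, 264 ± 25.4 for GLN1;2, 190.4 ± 18.0 for NIR1 and 84.3 ± 58.8 for GLN1;1, with the last 4 genes between 12.3 and 34.1 (SD, n = 3). GLN1;1 held the second place after high light and the sixth under high CO2. Under high CO2 the libraries of GLN1;1 and NIA1, of GLT1 and GLN1;3, and of GLN1;3 and GLN1;4 overlapped in both lines. NIA2 and GLN1;2, and NIA1 and GLT1, overlapped in cat2 gox2, and GLU1 and NIA2, and GLN1;2 and NIR1, in cat2 gox1.

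Within the nitrate reductase pair, NIA1 supplied 3.75%, 5.81% and 2.88% of the summed level per kilobase in cat2 gox2 after high light, against 10.3%, 11.5% and 8.10% under high CO2. In cat2 gox1 it supplied 5.04%, 3.82% and 4.68% after high light, against 9.96%, 11.0% and 11.6% under high CO2. Within the glutamate synthase pair, GLT1 supplied 8.32%, 8.19% and 5.91% in cat2 gox2 after high light, against 4.97%, 6.11% and 4.20% under high CO2, with overlap. In cat2 gox1 it supplied 10.5%, 13.7% and 4.14% after high light, against 6.11%, 6.38% and 5.20% under high CO2, again with overlap. NIA2 and GLU1 were thus the larger of their pairs in all 12 libraries.

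The lines were then compared within each condition, cat2 gox2 over cat2 gox1. Under high CO2, 0 of the 10 genes passed with edgeR and 0 with DESeq2, 0 had an unadjusted p under 0.05, and 0.0158% of all tested genes passed, all of them higher in cat2 gox2. The log2 differences of the members ran between -0.41 (NIA1, 95% interval -1.08 to 0.25) and 0.38 (GLN1;4, 95% interval -1.42 to 2.19). After high light, 0 of 10 passed with edgeR and 0 with DESeq2, again with 0 at an unadjusted p under 0.05, against 6.55% of all tested genes that passed (5.27% higher and 1.28% lower in cat2 gox2). The differences there ran between -0.45 (GLT1, 95% interval -1.30 to 0.39) and 0.37 (NIR1, 95% interval -0.10 to 0.84). The groups of the lines overlapped for all 10 genes in both conditions. Over all tested genes, the cat2 gox2 values lay wholly above those of cat2 gox1 for 15.8% and wholly below for 12.2% after high light, and for 3.62% and 4.49% under high CO2.

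The difference between the light responses of the lines, cat2 gox2 minus cat2 gox1, also passed for 0 of the 10 genes with edgeR and 0 with DESeq2, with 0 at an unadjusted p under 0.05, against 1.04% of all tested genes (0.996% with a positive and 0.0422% with a negative difference). It ran between -0.76 (GLN1;4, 95% interval -3.34 to 1.82) and 0.58 (NIA1, 95% interval -0.36 to 1.52). With 1 library left out, the NIA1 difference ran from 0.18 to 0.82. The intervals were narrowest for GLU1, with a difference of -0.02 (-0.38 to 0.35), and for GLN1;2, with 0.01 (-0.39 to 0.42). For GLN1;1 the interval was wide, at -0.13 (-2.11 to 1.84). A missed threshold does not show that the lines respond alike. For GLN1;1 and GLN1;4 these intervals, from the fit without the replicate block, leave room for differences of several fold. With the block, the SEs of the GLN1;1 light responses were 0.345 in cat2 gox2 and 0.348 in cat2 gox1, against 0.666 and 0.669 without it. Those of GLN1;4 were 0.383 and 0.375, against 0.838 and 0.826.

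**Figure D4:**
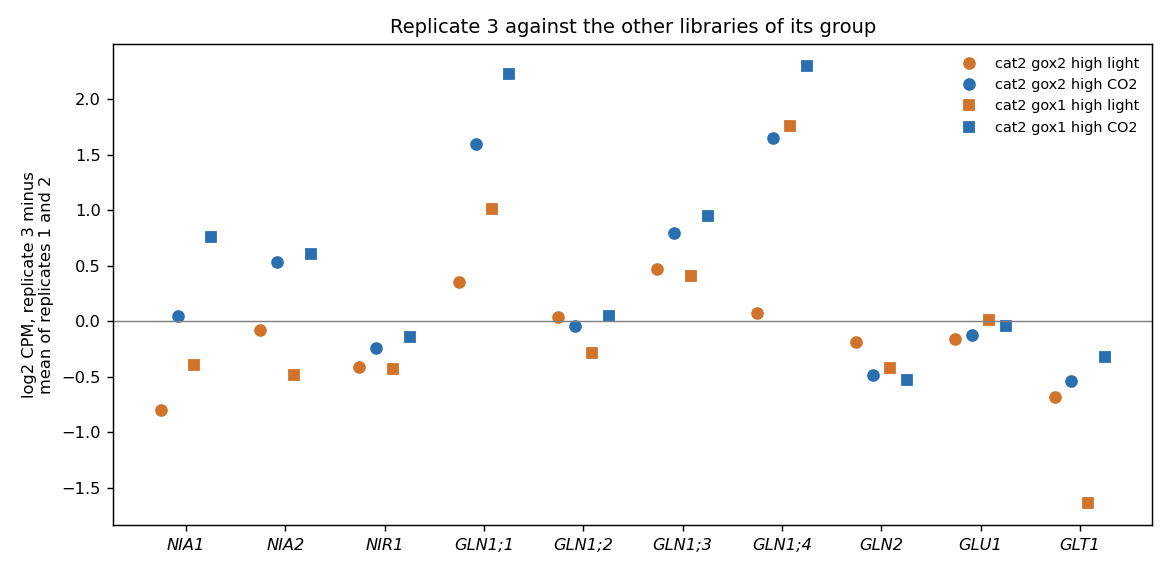
Log2 CPM of replicate 3 minus the mean log2 CPM of replicates 1 and 2 of the same group, for the 10 genes (circles cat2 gox2, squares cat2 gox1; orange high light, blue high CO2). Under high CO2 GLN1;1 stands at 1.60 in cat2 gox2 and 2.23 in cat2 gox1 and GLN1;4 at 1.65 and 2.30, while GLN1;2 and GLU1 lie between -0.13 and 0.05.

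Replicate 3 under high CO2 departed from its group in a way that differed by gene. On the log2 scale it exceeded the mean of replicates 1 and 2 by 1.60 in cat2 gox2 and 2.23 in cat2 gox1 for GLN1;1, by 1.65 and 2.30 for GLN1;4, by 0.79 and 0.95 for GLN1;3, and by 0.53 and 0.60 for NIA2. GLN2 was below that mean, at -0.49 in cat2 gox2 and -0.53 in cat2 gox1, and GLT1 at -0.54 and -0.32. GLN1;2 was at -0.04 and 0.05, and GLU1 at -0.13 and -0.04. NIA1 differed between the lines, at 0.05 in cat2 gox2 and 0.76 in cat2 gox1. The summed mesophyll markers were 47176 CPM in that replicate of cat2 gox2, against 70277 and 75910 CPM in the other libraries of its group, and 42708 CPM in that of cat2 gox1, against 66843 and 67094 CPM. The marker LHCB2.1 did not share this drop, at 0.12 in cat2 gox2 and 0.03 in cat2 gox1 on the log2 scale. All other mesophyll markers were lower in both lines, RBCS1A at -0.74 and -0.79. The part of the markers in the departure of these members was not tested.

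Beyond the 10 genes, 5 lists of pathway genes were examined in the same fit. Their counts stand against the shares over all tested genes, 27.7% higher and 29.2% lower in cat2 gox2 and 25.6% higher and 26.5% lower in cat2 gox1. Over the 5 lists together, 50 of 77 tested genes passed in cat2 gox2 (64.9%, against 56.9% over all genes) and 47 of 77 in cat2 gox1 (61.0%, against 52.1%). Nitrate transport had 16 of 19 genes tested, of which 4 passed as higher and 3 as lower in cat2 gox2, and 5 as higher and 4 as lower in cat2 gox1. The median log2 fold change was 0.02 in cat2 gox2 and -0.10 in cat2 gox1. NRT3.1, the partner protein of the high-affinity NRT2 transporters, rose by 2.46 (SE 0.299, edgeR adjusted p = 4.02e-05) in cat2 gox2 and 1.85 (SE 0.293, edgeR adjusted p = 0.000358) in cat2 gox1, all on the log2 scale. NPF2.13 (NRT1.7), which loads nitrate into the phloem of older leaves, rose by 1.23 in cat2 gox2 (edgeR adjusted p = 0.00759) and 1.79 in cat2 gox1 (edgeR adjusted p = 0.00101). NPF7.3 (NRT1.5), a xylem-loading nitrate transporter of roots, fell by 2.27 in cat2 gox2 (edgeR adjusted p = 3.42e-06) and 1.93 in cat2 gox1 (edgeR adjusted p = 1.54e-05). NPF2.9 (NRT1.9) had -0.90 in cat2 gox2 (edgeR adjusted p = 0.00331) and -1.09 in cat2 gox1 (edgeR adjusted p = 0.00119). NPF7.2 (NRT1.8), known for taking nitrate back from the xylem, rose by 4.41 in cat2 gox1 (SE 0.853, edgeR adjusted p = 0.00134), with 7.61, 17.9 and 1.60 CPM after high light against 0.414, 0.231 and 0.595 CPM under high CO2. Without replicate 2 of cat2 gox1 after high light that value was 3.44, and without replicate 3 throughout it was 5.38. In cat2 gox2 it did not pass, at 1.94 (edgeR adjusted p = 0.0796). The number of lower nitrate transport genes depended on single libraries: it was 5 in cat2 gox2 without its replicate 2 after high light, and 2 in cat2 gox1 without replicate 1 under high CO2 or replicate 2 after high light.

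Ammonium transport had 4 of 6 genes tested, and 3 passed as higher in cat2 gox2 and 2 in cat2 gox1. AMT2;1, a plasma membrane ammonium transporter, had 167, 137 and 157 CPM in cat2 gox2 after high light, against 15.0, 9.69 and 17.3 CPM under high CO2. Levels in cat2 gox1 were 124, 175 and 129.7 CPM, against 12.5, 11.4 and 15.6 CPM. The groups were far apart, with log2 fold changes of 3.45 (SE 0.233, edgeR adjusted p = 5.09e-07) in cat2 gox2 and 3.44 (SE 0.233, edgeR adjusted p = 9.99e-07) in cat2 gox1. AMT1;1, a high-affinity ammonium transporter, rose by 2.7 (SE 0.291, edgeR adjusted p = 1.65e-05) in cat2 gox2 and 2.47 (SE 0.302, edgeR adjusted p = 5.97e-05) in cat2 gox1. The remaining rise in cat2 gox2 was that of AMT1;4, named after its values were seen, at 1.32 (edgeR adjusted p = 0.0144). The number of higher genes in cat2 gox2 was 2 without its replicate 1 under high CO2, its replicate 2 under high CO2 or its replicate 3 after high light, and in each of these fits AMT2;1 and AMT1;1 passed. In cat2 gox1 AMT1;4 did not pass, at -0.19 (edgeR adjusted p = 0.720), and the difference between the lines did not pass for any gene of this list.

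Genes for cofactors and reducing power had 17 of 18 members tested, with 6 higher and 7 lower in cat2 gox2, and 4 higher and 6 lower in cat2 gox1. CNX2, an early enzyme of the molybdenum cofactor that nitrate reductase needs, rose by 1.99 (SE 0.142, edgeR adjusted p = 7.53e-07) in cat2 gox2 and 1.55 (SE 0.140, edgeR adjusted p = 7.07e-06) in cat2 gox1. UPM1, which starts the branch to the siroheme of nitrite reductase, fell by 0.77 in cat2 gox2 (edgeR adjusted p = 0.00515) and 0.95 in cat2 gox1 (edgeR adjusted p = 0.00178), and was picked after its values were seen. FD2, the main leaf ferredoxin gene, fell by 1.51 (SE 0.298, edgeR adjusted p = 0.00124) in cat2 gox2 and 1.41 (SE 0.297, edgeR adjusted p = 0.00228) in cat2 gox1. RFNR2, a root-type ferredoxin-NADP reductase gene, fell by 1.08 in cat2 gox2 (edgeR adjusted p = 0.00104) and 1.60 in cat2 gox1 (edgeR adjusted p = 9.80e-05). The plastid glucose-6-phosphate dehydrogenase genes split: G6PD2 rose by 1.47 in cat2 gox2 (edgeR adjusted p = 0.000148) and 1.90 in cat2 gox1 (edgeR adjusted p = 3.42e-05), and G6PD3 fell by 0.93 (edgeR adjusted p = 0.00204) and 1.53 (edgeR adjusted p = 0.000102).

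The list of other glutamate, glutamine, aspartate and asparagine genes had 15 of 16 members tested, with 4 higher and 7 lower in cat2 gox2 and the same numbers in cat2 gox1. GDH2, a mitochondrial glutamate dehydrogenase gene, had 245, 231 and 229.9 CPM in cat2 gox2 after high light, against 30.0, 29.4 and 46.7 CPM under high CO2. For cat2 gox1 the values were 268, 414 and 201 CPM, against 29.9, 32.1 and 32.0 CPM. Its log2 fold change was 2.73 (SE 0.259, edgeR adjusted p = 6.38e-06) in cat2 gox2 and 3.23 (SE 0.265, edgeR adjusted p = 3.47e-06) in cat2 gox1. The aspartate aminotransferase gene ASP3 rose by 1.81 (edgeR adjusted p = 1.18e-05) in cat2 gox2 and 1.95 (edgeR adjusted p = 1.08e-05) in cat2 gox1. ASN2, an asparagine synthetase gene, fell by 1.60 (edgeR adjusted p = 0.00600) in cat2 gox2 and 2.37 (edgeR adjusted p = 0.000737) in cat2 gox1. GDH3, whose levels stayed under 2 CPM, fell by 1.62 (edgeR adjusted p = 0.0125) in cat2 gox2 and 2.03 (edgeR adjusted p = 0.00329) in cat2 gox1. Without replicate 3 after high light the cat2 gox2 value of GDH3 was -1.43 and missed the threshold (edgeR adjusted p = 0.0525), as it did without replicate 3 throughout (-1.17, edgeR adjusted p = 0.117), and without replicate 1 after high light the cat2 gox1 value was -2.91.

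**Figure D5:**
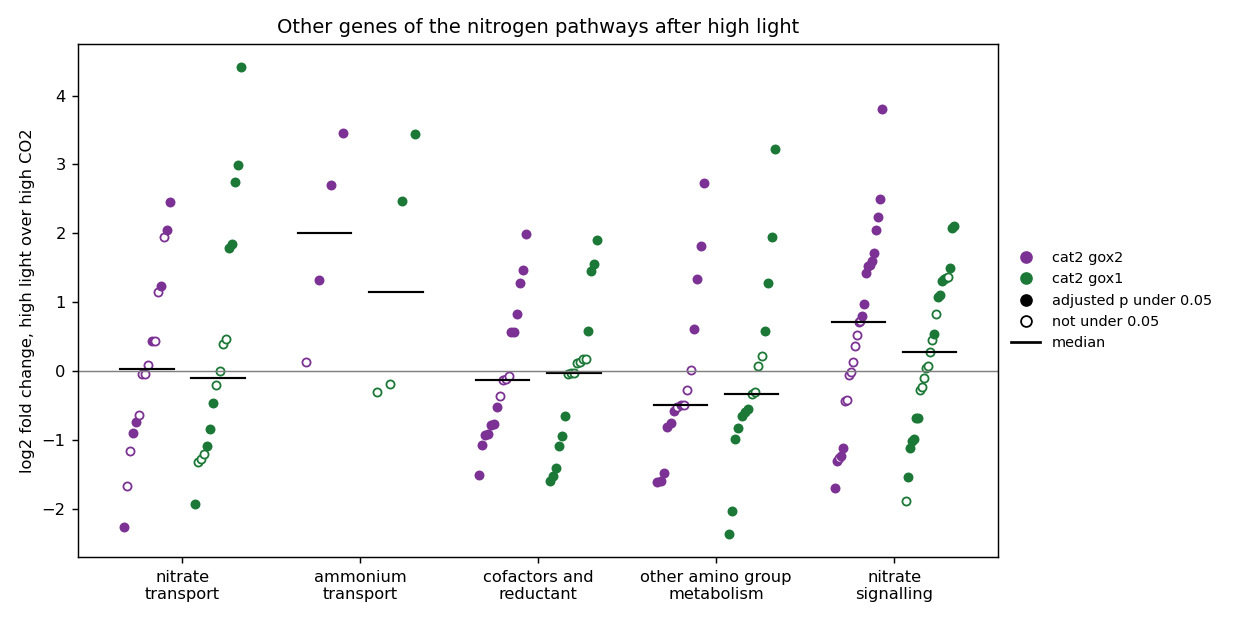
Log2 fold change, high light over high CO2, of every tested gene in the 5 pathway lists (purple cat2 gox2, green cat2 gox1), with filled points for an adjusted p under 0.05 and a line at each list's median. Ammonium transport has 4 tested genes and medians of 2.01 and 1.14, and the other lists have medians between -0.50 and 0.71 with genes on both sides of 0.

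Nitrate signalling had 25 of 27 genes tested, with 12 higher and 4 lower in cat2 gox2, and 9 higher and 6 lower in cat2 gox1. CBL1, a calcium sensor that acts on nitrate uptake through the kinase CIPK23, rose by 3.81 (SE 0.213, edgeR adjusted p = 1.35e-07) in cat2 gox2 and 2.11 (SE 0.201, edgeR adjusted p = 1.04e-05) in cat2 gox1. BT1, a BTB domain scaffold gene, rose by 1.72 (edgeR adjusted p = 0.000149) in cat2 gox2 and 2.08 (edgeR adjusted p = 5.94e-05) in cat2 gox1. Its relative BT2 passed only narrowly in cat2 gox2, at 2.5 (SE 0.946, edgeR adjusted p = 0.0413), and lost the call in 6 of the 12 fits that left out a library. Its value was 1.77 without replicate 2 of cat2 gox2 after high light (edgeR adjusted p = 0.158) and 3.26 without replicate 2 of cat2 gox2 under high CO2. In cat2 gox1 BT2 had 1.37 (edgeR adjusted p = 0.231). Of the NIN-like transcription factor genes, NLP2 fell by 1.31 (edgeR adjusted p = 4.70e-05) in cat2 gox2 and 0.99 (edgeR adjusted p = 0.000398) in cat2 gox1, and NLP6 by 1.12 in both lines (edgeR adjusted p = 5.27e-05 and 7.14e-05). The locus AT3G60320 fell by 1.70 (edgeR adjusted p = 1.57e-05) in cat2 gox2 and 1.54 (edgeR adjusted p = 4.40e-05) in cat2 gox1.

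Between the lines after high light, 6 of the 77 tested genes in the 5 lists passed (7.79%), near the 6.55% over all tested genes. CBL1 was higher in cat2 gox2 by 1.62 (SE 0.192, edgeR adjusted p = 0.000593) and CPK32, a calcium-dependent kinase gene, by 0.85 (SE 0.152, edgeR adjusted p = 0.00647). TGA4, a bZIP transcription factor gene named after its values were seen, was higher by 0.44 (edgeR adjusted p = 0.0316). The NPF4.6 call (0.42, edgeR adjusted p = 0.0476) held in only 2 of the 12 fits that left out a library, with edgeR adjusted p up to 0.151. It was also lost with upper-quartile scaling (edgeR adjusted p = 0.0788) and with the replicate block (edgeR adjusted p = 0.0522). The CNX3 call (-0.57, edgeR adjusted p = 0.0361) held in 3 of those 12 fits, with edgeR adjusted p up to 0.135. The AT2G43760 call (-0.48, edgeR adjusted p = 0.0223) held in 8 of them, with edgeR adjusted p up to 0.0783.

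As a description, the genes whose pattern was most like each member were sought over the 12 libraries among the 13663 genes that averaged 5 CPM or more, by the root mean square difference of centred log2 CPM. The closest to GLN1;2 was HPR, which encodes the peroxisomal hydroxypyruvate reductase, at 0.0803, followed by AT3G27050 at 0.0899. The closest to GLU1 were PIL6 at 0.0824 and KIPK at 0.107, and the closest to GLN2 were AT3G13070 at 0.0508 and AT1G14270 at 0.0643. For NIR1 they were AT3G49650 at 0.145 and AT3G06130 at 0.155, and for NIA1 CVL1 at 0.318 and LYC at 0.323. For NIA2 they were AT1G68670, a gene of the nitrate signalling list, at 0.181 and AT1G70900 at 0.187. The closest to GLN1;1 were LHT1, an amino acid transporter gene, at 0.304 and EDS5 at 0.314, against a spread of its own of 1.52. The own spread was 0.912 for NIA1 and 0.317 for NIA2. GLN1;3 came closest to AT2G18240 at 0.0888 and AT2G04110 at 0.0997, GLN1;4 to AT2G47880 at 0.410 and AT3G57680 at 0.477, and GLT1 to AT2G16660 at 0.277 and AT1G71695 at 0.278. All 12 libraries share the contrast between conditions, so a small difference says only that the levels ran in parallel here, and in no case was another member among the 2 closest genes.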

How the data were processed

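RNA was sequenced from 12 libraries, prepared with a stranded mRNA kit per the labels' protocols, and the deposited file holds raw read counts per locus for every library. Per the submitters' processing notes, the tools were Trim Galore 0.3.3, TopHat2 2.1.0 and featureCounts of Subread 1.4.6, with the genome build TAIR10; the sources used here give neither the strand setting nor the handling of reads with several matches, and both could shift counts of overlapping or near-identical genes. Of 33602 loci, 8982 had no count, 32835 had an entry in RefSeq TAIR10.1, and 2 entries that name no gene were left out of library totals and tests.

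The counts of all 12 libraries were fitted together in edgeR 4.0.16 (R 4.3.3, limma 3.58.1) with TMM scaling, filterByExpr (minimum count 10, minimum total 15), 1 coefficient per group and the quasi-likelihood F test. This left 18967 genes with 99.96% of the reads and a biological coefficient of variation of 0.211. P-values were adjusted over all tested genes by the Benjamini-Hochberg method, and 0.05 was the threshold. The SE of a log2 fold change was approximated as its size divided by the square root of F, and 95% intervals follow from it. The fit was tested on simulated data with 200 changed genes in a single group. In the data 56.9% of tested genes passed after high light in cat2 gox2 and 52.1% in cat2 gox1. That simulation therefore cannot check the scaling under changes this broad. Alternatives were DESeq2 1.42.0, other scalings and filters, only the libraries compared, each library left out, replicate 3 left out, and the replicate number as a block. Same-numbered libraries of the lines deviated together under high CO2 (correlations of 0.433 to 0.765 over 3 pairs). Replicate 3 was set apart there, at 0.765 against -0.636 to -0.506 with unlike numbers. Replicates 1 and 2 were not: replicate 1 of cat2 gox1 had 0.433 with replicate 1 of cat2 gox2 and 0.497 with its replicate 2. Only replicate 3 is thus shown to pair the lines there. With the block, 3 genes and 0 members passed between the lines under high CO2, as without it. The labels do not say whether a number marks a shared day. Sequences, motifs and transcript lengths came from RefSeq TAIR10.1, and coding sequences were aligned with mafft 7.526.

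The 10 members and the pathway and marker lists were chosen with earlier results of these data known. The pathway genes named are the 2 largest changes that passed in each direction of each list and comparison, at a mean of at least 1 CPM, with exceptions named after their values were seen (AMT1;4, UPM1 and TGA4), and the 2 genes most like each member at a mean of at least 5 CPM.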

Additional observations from a re-analysis of the deposited data

Results flagged for a closer look

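Of the 77 tested pathway genes, 1 (1.3%), CBL1, had light responses that differed between the lines by a test of the difference itself. That share is near the 1.04% over all tested genes (0.996% with a positive difference). The count by itself is therefore no result about the pathway genes. CBL1 had 83.2, 123 and 101 CPM in cat2 gox2 after high light, against 7.57, 7.67 and 6.63 CPM under high CO2. In cat2 gox1 it had 26.2, 43.4 and 30.2 CPM after high light, against 7.04, 7.53 and 8.53 CPM under high CO2. Levels under high CO2 were similar in both lines, and after high light all cat2 gox2 libraries lay above all cat2 gox1 libraries. The difference of the light responses, cat2 gox2 minus cat2 gox1, was 1.70 on the log2 scale (SE 0.277, edgeR adjusted p = 0.0158). The call was lost without replicate 3 of cat2 gox1 after high light (1.64, edgeR adjusted p = 0.0544), without replicate 3 under high CO2 (1.52, edgeR adjusted p = 0.0737) and without replicate 3 throughout (1.52, edgeR adjusted p = 0.201). No member of the assimilation genes met a condition for a closer look.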

How the results depend on the processing

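The 6 assimilation genes that passed in each line kept call and direction in all 252 values computed under other settings, which are not independent of each other. The members that passed numbered 6 to 7 in each line under all settings except the replicate block, where they were 7 in cat2 gox2 and 8 in cat2 gox1, with GLT1 (edgeR adjusted p = 0.0292) added in cat2 gox2 and GLN1;3 (edgeR adjusted p = 0.0282) and GLT1 (edgeR adjusted p = 0.0420) in cat2 gox1. Over all genes, the block gave 11790 calls in cat2 gox2, 11102 in cat2 gox1, 1725 between the lines after high light and 285 for the difference of responses. Same-number correlations ran from -0.138 to 0.458 between conditions of cat2 gox2 and from 0.078 to 0.302 between those of cat2 gox1. They ran from -0.192 to 0.230 between the lines after high light. Replicate 3 had 0.423, 0.302 and 0.230 in these comparisons, and replicate 1 had -0.138, 0.236 and -0.192. The numbers are thus not shown to pair all libraries there. The block also gave 7 lower nitrate signalling genes in cat2 gox2, against 4 without it. Leaving out each library gave 9282 to 11467 calls in cat2 gox2, 8203 to 10739 in cat2 gox1, 2 to 4 between the lines under high CO2 (3 with all), 721 to 1624 after high light (1243 with all) and 88 to 195 for the difference of responses (197 with all). DESeq2 gave 5 calls between the lines under high CO2 and 532 for the difference of responses. Without replicate 3 under high CO2, 2198 genes passed between the lines after high light. Without replicate 3 throughout, 1 passed between the lines under high CO2 and 38 for the difference of responses. Values that turned sign belonged to members that did not pass in that comparison with all libraries and TMM scaling. For GLN1;4 in cat2 gox1 they were 0.96 without replicate 3 under high CO2, 0.21 without replicate 3 throughout and -0.97 to 0.85 with 1 library left out. For NIA2 in cat2 gox2 they were 0.22, 0.26 and -0.22 to 0.14 in the same settings, and GLN1;3 in cat2 gox2 was -0.05 with upper-quartile scaling. Between the lines under high CO2, GLN1;4 ran from -0.19 to 1.49 with 1 library left out. For the difference of responses, GLN1;2 was -0.05 with upper-quartile scaling, -0.06 without replicate 3 under high CO2, -0.11 without it throughout and -0.08 to 0.13 with 1 library left out. GLU1 was 0.02 without replicate 3 throughout and -0.08 to 0.03 with 1 left out, and GLN1;1 was -1.28 to 0.58 with 1 left out. The cause of these changes was not tested. With 3 libraries a group, members with wide replicate spread, such as GLN1;1, GLN1;4 and GLT1, had wide intervals for the lines in the fit without the block. Replicate 3 under high CO2 departed the same way in both lines for GLN1;1 (1.60 in cat2 gox2 and 2.23 in cat2 gox1) and GLN1;4 (1.65 and 2.30). Intervals of the line differences with the block are not given here. The p-values measure the spread between repeats of pooled plants.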
